A study of Gallus gallus with 32 samples.

Results

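CCNB1, TOP2A, RRM2, STMN1, PBK, KNSTRN and PCNA are 7 genes that dividing cells use, and all 7 were measured in the anterior pituitary gland of growing chickens. They stand among 6428 genes with a symbol on the array, and every probe that the platform's probe table assigns to them was used, 11 of 19200 probes. Of these 11 probes 10 were measured well enough to enter the model, which tested 14705 probes in all. The genes were chosen from earlier results of these data for their change between 1 and 7 weeks of age. That change, and each step that starts at week 1 or ends at week 7, is therefore given as a description, with a standard error and no test. Differences between the lines, between weeks 3 and 5 and between the middle and the outer ages were not used in the choice and were tested. The last of these holds the arrays of weeks 1 and 7, so it is not fully independent of the choice. Whether the lines aged differently was also tested, although the choice asked for the same sign of change in both lines.

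A cell that divides first copies its DNA and then separates the copies. Ribonucleotide reductase supplies the deoxynucleotides, PCNA forms the clamp that holds DNA polymerase on its template, and topoisomerase II alpha untangles the finished strands. Cyclin B1 with its kinase partner drives entry into mitosis, and kinases and microtubule proteins then build and anchor the spindle. The transcripts of these proteins tend to be more abundant in cycling cells than in resting ones. They are therefore widely used as a readout of proliferation, in the young pituitary as in other growing tissues.

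The birds were Fat line and Lean line broiler chickens of the FL genotype, selected in opposite directions on the weight of abdominal fat for 7 generations, raised on a standard protocol and sampled at 1, 3, 5 or 7 weeks. Line and age gave 8 groups with 4 biological replicates apiece, 32 arrays in all, and the sex of the birds is not given in the sources used here. Amplified antisense RNA of a sample was labelled with Cy3 and hybridised to a spotted cDNA array together with a Cy5 pool of all 32 RNAs, in the same dye orientation throughout. Each value below is a log2 ratio of sample over pool, so a value of 0 means the level of the pool, a difference of 1 is a 2-fold change, and levels of different genes are not comparable.

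An array had 14008 to 16134 usable spots, and the number of arrays limits the precision. The files of lean and fat week 7 replicate 2 hold one and the same scan, with 63.9% of spots equal in area and quality score against at most 1.01% in any of the other 495 pairs of arrays. Both files were left out, which leaves 30 arrays and 3 per line at week 7, and their values are given beside the others. The file headers name 8 days for these 30 arrays, and none of the 8 days holds arrays of both week 1 and week 7. As a check of the tissue, the probes of the pituitary hormone genes GH, PRL, CGA, FSHB, TSHB and POMC had median Cy3 signals of 65.3, 67.4, 60.0, 34.8, 25.0 and 10.7 times their local background, so none of the 6 was absent.

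From week 1 to week 7, averaged over both lines, the log2 ratio was lower at 9 of the 10 tested probes, by 0.33 for PCNA 2 to 1.69 for KNSTRN (1.11 without 1 spot), with a median over the 10 of -1.11 against -0.02 over all tested probes. CCNB1, PBK, RRM2 and the brighter TOP2A probe were 2.83- to 3.07-fold lower, the 2 STMN1 probes and the dimmer TOP2A probe 1.51- to 1.65-fold lower, and the 2 PCNA probes went in opposite directions. At 7 of the 10 probes every array of week 1 lay above every array of week 7, an arrangement found at 0.721% of all tested probes, although this comparison is the one that chose the genes. Over all tested probes 6.95% passed downward and 8.85% upward from week 1 to week 7. The difference was negative in both lines at the same 9 probes, with a median of -1.20 in lean and -0.91 in fat birds. The lean median and the -1.11 over both lines include 1 KNSTRN spot that read 5.54 on a lean array of week 1. That spot puts the lean difference of KNSTRN at -2.36 and makes both medians larger in size. With arrays left out the median over both lines ran from -1.16 to -0.92. The gap between the lean and fat medians was not tested. In whole-gland RNA, fewer dividing cells and less of these transcripts per dividing cell cannot be told apart.

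**Figure D1:**
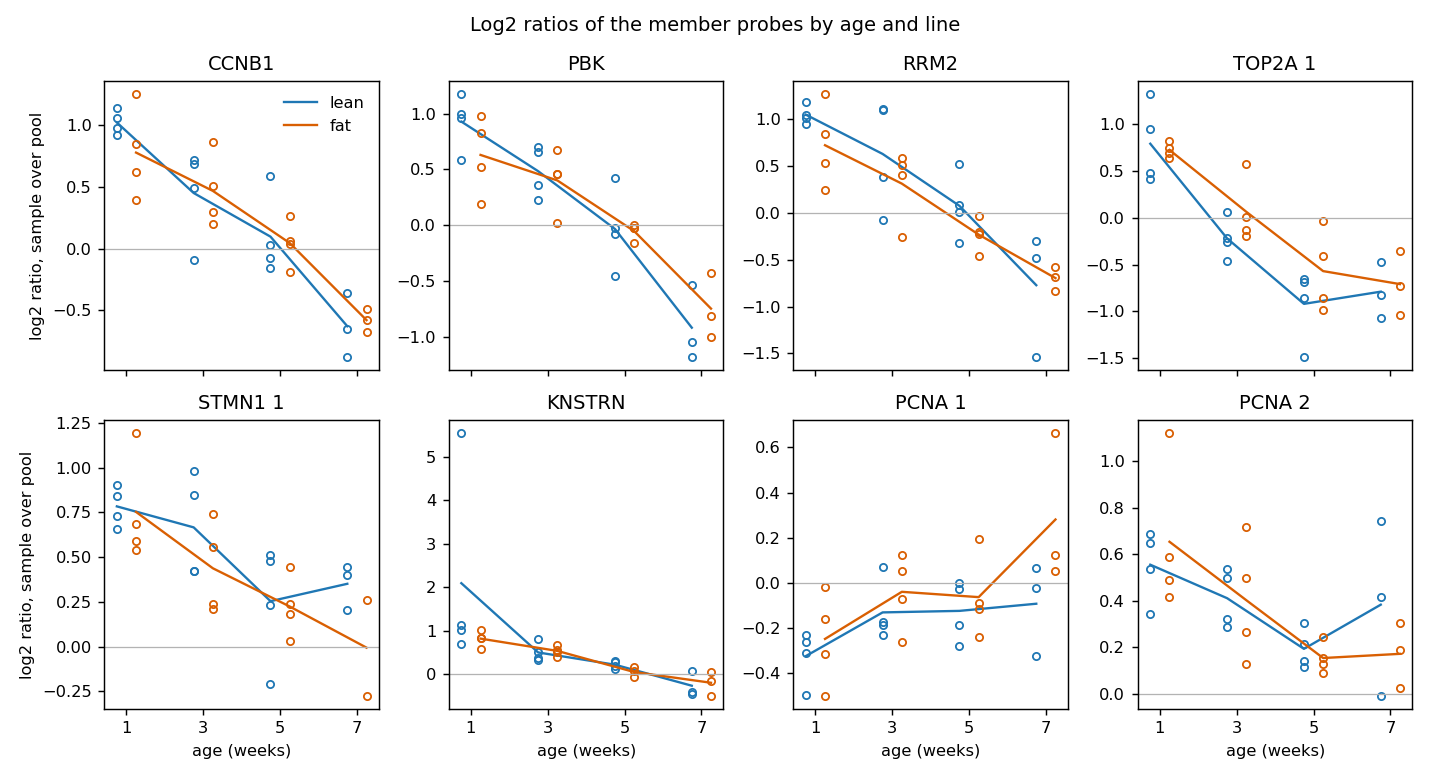
Log2 ratio of sample over pool (y axis, a scale per panel) against age in weeks (x axis) for 8 member probes, with a circle for each of the 30 arrays and a line through the mean of each group of lean (blue) or fat (orange) birds. CCNB1, PBK and RRM2 go down at each step, TOP2A 1 is level after week 5, and 1 lean KNSTRN spot stands at 5.54. From week 1 to week 7 PCNA 1 is higher and PCNA 2 lower, while both rise after week 5.

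RRM2 encodes the small subunit of ribonucleotide reductase, the enzyme that makes deoxynucleotides. At week 1 the lean arrays read 1.05, 0.95, 1.18 and 1.01 in the order of their replicate numbers and the fat arrays 0.24, 0.84, 1.27 and 0.53. At week 3 the lean arrays read 1.10, -0.08, 1.11 and 0.38 and the fat arrays -0.26, 0.41, 0.51 and 0.59. The lean arrays of week 1 lay close together and the fat ones were spread, and at week 3 both lines held high and low arrays, so weeks 1 and 3 overlapped. At week 5 the lean arrays read 0.014, -0.32, 0.08 and 0.52 and the fat arrays -0.46, -0.04, -0.23 and -0.20. At week 7, where replicate 2 is missing, the lean arrays read -0.49, -0.30 and -1.53 and the fat arrays -0.68, -0.58 and -0.83, with the shared scan at -1.02 and -1.002 in its 2 files. Every array of week 7 was below every array of week 1, and the mean difference was -1.62 (SE 0.20, 3.07-fold).

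PCNA, the sliding clamp of the replication fork, had 2 tested probes that did not move alike. At its brighter probe, PCNA 1, the 8 arrays of week 1 ran from -0.50 to -0.02 with a median of -0.28, and the 6 arrays of week 7 from -0.32 to 0.66 with a median of 0.06. At PCNA 2 the arrays of week 1 ran from 0.34 to 1.12 with a median of 0.56 and those of week 7 from -0.01 to 0.74 with a median of 0.25. Weeks 1 and 7 overlapped at both probes. PCNA 1 was higher at week 7 by 0.38 (SE 0.10) and PCNA 2 lower, at -0.33 (SE 0.11). Between weeks 5 and 7 the means of both probes rose, by 0.19 for PCNA 1 and 0.10 for PCNA 2. In lean birds the difference of PCNA 2 from week 1 to week 7 was -0.17 (95% interval -0.50 to 0.16). The highest PCNA 1 array was fat week 7 replicate 4 at 0.66, whereas the other fat arrays of week 7 read 0.13 and 0.05.

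Neither PCNA probe was dim or saturated, with median Cy3 signals of 18.4 and 12.4 times background. Arrays that stood above their own group's mean at PCNA 2 also tended to stand above it for RRM2, with a correlation of 0.69 between the deviations over 30 arrays. The same correlation was 0.64 with STMN1 2, 0.48 with CCNB1 and 0.37 with PBK, and TOP2A and KNSTRN were not set against PCNA 2. The deviations of PCNA 1 and PCNA 2 had a correlation of -0.21, against 0.69 for the 2 probes of TOP2A and 0.90 for those of STMN1 (29 arrays). The points of each correlation share an array, its dyes and its normalization. PCNA 1 had correlations of -0.15 to 0.13 with the other 6 genes at their brightest probes, where the 0.13 is that with KNSTRN and becomes 0.22 without 1 KNSTRN spot. The clones behind the 2 probes were not analysed here.

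**Figure D2:**
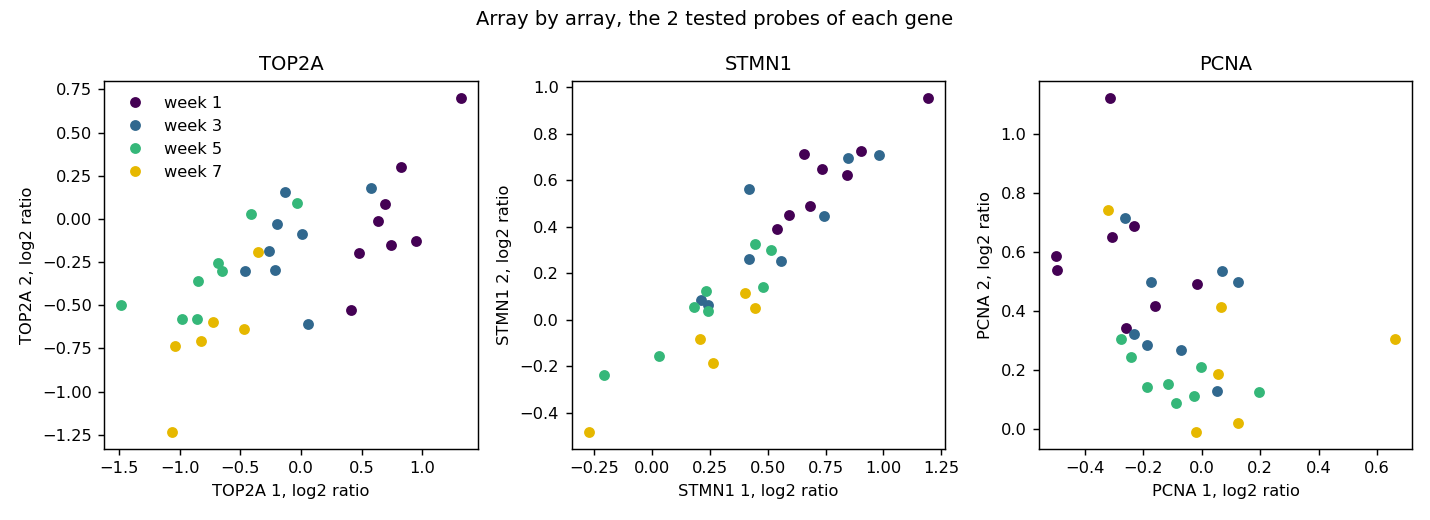
Log2 ratio at the dimmer tested probe (y axis) against that at the brighter probe (x axis) of TOP2A, STMN1 and PCNA, with a point for each array coloured by age. The points of TOP2A and STMN1 rise together and those of PCNA do not, with within-group correlations of 0.69, 0.90 and -0.21.

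TOP2A encodes topoisomerase II alpha, which resolves the tangles left by replication. At its brighter probe, TOP2A 1, the lean arrays of week 1 read 0.48, 0.42, 0.95 and 1.32 and the fat arrays 0.82, 0.64, 0.69 and 0.75. At week 3 the lean arrays read 0.06, -0.47, -0.21 and -0.26 and the fat arrays -0.19, -0.14, 0.58 and 0.0044. Only fat week 3 replicate 3 lay within the range of week 1. At week 5 the lean arrays read -0.65, -1.48, -0.86 and -0.68 and the fat arrays -0.03, -0.41, -0.98 and -0.85. At week 7 the lean arrays read -0.47, -1.07 and -0.83 and the fat arrays -0.36, -1.04 and -0.72, with the shared scan at -0.21 in both files. The arrays of week 7 all lay within the range of week 5, and 99.7% of the whole difference of -1.51 (SE 0.17, 2.84-fold) lay before week 5.

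A second TOP2A probe, TOP2A 2, had week means of 0.0088, -0.15, -0.31 and -0.68, with SDs of 0.37, 0.26, 0.26 and 0.33 over 8, 8, 8 and 6 arrays. Its difference from week 1 to week 7 was -0.69 (SE 0.15), and week 1, at -0.53 to 0.70, overlapped with week 7, at -1.23 to -0.19. Another TOP2A probe was usable on 2 of the 30 arrays, at 0.33 on fat week 3 replicate 4 and 0.29 on lean week 7 replicate 3, and was not tested. The 2 tested probes thus placed the fall at different ages, with 45.5% of it before week 5 at TOP2A 2.

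CCNB1 encodes cyclin B1, the cyclin that carries cells into mitosis, and the RefSeq gene table lists CCNB2 among the synonyms of the chicken gene. At week 1 the lean arrays read 1.06, 0.92, 1.14 and 0.98 and the fat arrays 0.62, 0.85, 1.25 and 0.39. At week 3 the lean arrays read 0.71, -0.09, 0.69 and 0.49 and the fat arrays 0.51, 0.30, 0.86 and 0.20. The lean arrays of week 1 all stood above every lean array of week 3, while the fat arrays of the 2 ages overlapped. At week 5 the lean arrays read 0.03, -0.15, -0.07 and 0.58 and the fat arrays 0.27, -0.19, 0.04 and 0.06. At week 7 the lean arrays read -0.36, -0.65 and -0.87 and the fat arrays -0.49, -0.67 and -0.58, with the shared scan at -0.87 in both files. All 6 arrays of week 7 were below every array of the 3 younger ages, and the difference from week 1 was -1.50 (SE 0.14, 2.83-fold).

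PBK encodes a mitotic serine and threonine kinase. At week 1 the lean arrays read 0.58, 0.96, 1.00 and 1.17 and the fat arrays 0.52, 0.83, 0.98 and 0.19. At week 3 the lean arrays read 0.65, 0.22, 0.70 and 0.36 and the fat arrays 0.02, 0.45, 0.67 and 0.46. The lowest array of week 1, fat replicate 4, was also the lowest of its group for CCNB1. At week 5 the lean arrays read -0.08, -0.46, -0.03 and 0.42 and the fat arrays lay between -0.16 and -0.0011. At week 7 the lean arrays read -0.53, -1.18 and -1.05 and the fat arrays -0.43, -1.001 and -0.82, with the shared scan at -0.55 and -0.56. The arrays of week 7 lay below all arrays of weeks 1 and 3 and overlapped with week 5, and the difference from week 1 was -1.61 (SE 0.15, 3.06-fold).

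STMN1 encodes stathmin, a protein that takes microtubules apart and is switched off by phosphorylation as the mitotic spindle forms. At the dimmer probe, STMN1 2, the lean arrays of week 1 read 0.62, 0.72, 0.71 and 0.65 and the fat arrays 0.49, 0.45, 0.95 and 0.39. At week 7 the lean arrays read 0.05, 0.11 and -0.08 and the fat arrays -0.19, -0.48 and -0.03. The 2 ages were separate, and the lines overlapped at week 7. The difference was -0.73 (SE 0.11, 1.65-fold) at STMN1 2 and -0.60 (SE 0.14, 1.51-fold) at STMN1 1. STMN1 1 was very bright, with a median Cy3 signal of 75.9 times background, and 2 of its 29 usable spots were saturated. The shared scan read -0.74 at STMN1 2 and -0.54 at STMN1 1, below all 6 and all 5 other usable arrays of week 7.

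KNSTRN encodes a kinetochore and spindle protein that helps chromosomes align. At week 1 the lean arrays read 5.54, 1.12, 1.02 and 0.68 and the fat arrays 0.84, 1.01, 0.83 and 0.58. The spot that read 5.54, on lean week 1 replicate 1, had an area of 19 pixels and a Cy3 signal 52.3 times background, whereas the probe's median signal over the arrays was 3.81 times background. At week 3 the 8 arrays ran from 0.32 to 0.80, at week 5 the 7 usable arrays from -0.07 to 0.30, and at week 7 the 6 arrays from -0.50 to 0.06. Every array of week 3 was above every array of week 5, which held at 1 of the 10 member probes and at 0.0204% of all tested probes. The difference from week 1 to week 7 was -1.69 (SE 0.43) with that spot and -1.11 without it.

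The genes took different parts of their fall at different ages. RRM2, CCNB1 and PBK had 59.5%, 55.1% and 51.03% of it before week 5 and a step of -0.66, -0.67 and -0.79 between weeks 5 and 7. TOP2A 1 had -0.84 and -0.67 in its first 2 steps and -0.0042 in the last. STMN1 1 had 88.8% before week 5, with 5 usable arrays at week 7, and STMN1 2 had 75.8%. These shares are differences of means with no test of their own.

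The day named in the file headers moved with age. With it as a fixed block the difference from week 1 to week 7 was smaller in size at all 10 probes. It was -0.86 (SE 0.21) for CCNB1, -0.88 (SE 0.21) for PBK, -0.80 (SE 0.34) for RRM2 and -1.08 (SE 0.30) for TOP2A 1. For KNSTRN it was -0.81 (SE 0.17), to be set against -1.11, since this fit gives no weight to the array with the spot that read 5.54, which is alone on its day. The difference was -0.31 (SE 0.17) for STMN1 2 and 0.06 (SE 0.21) for STMN1 1, whose direction turned, and the median over the 10 probes was -0.70. No day joins week 1 to week 7, so this fit links them only through days that hold week 3 or week 5. With the day as a random block, the correlation within a day was 0.083. The differences were then -1.43 for CCNB1, -1.53 for PBK, -1.53 for RRM2, -1.46 for TOP2A 1 and -0.53 for STMN1 1. For KNSTRN the difference was -1.73, against -1.69 without the day, and both values include the spot that read 5.54.

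Within a day and a line, 4 comparisons of week 3 with week 1 were possible, 5 of week 5 with week 3 and 2 of week 7 with week 5. CCNB1 was lower at the older age in 4 of 4, 4 of 5 and 2 of 2 of them, with medians of -0.27, -0.13 and -0.35. TOP2A 1 was lower in 4 of 4, 4 of 5 and 0 of 2, with medians of -0.82, -0.42 and 0.12. PBK was lower in 3 of 4, 4 of 5 and 2 of 2, with medians of -0.26, -0.46 and -0.43. RRM2 was lower in 2 of 4, 4 of 5 and 2 of 2, with medians of -0.25, -0.24 and -0.57. For these 4 probes the within-day medians had the direction of the pooled step, except for the last step of TOP2A 1, and every other median was smaller than the pooled step. STMN1 2 was lower in 4 of 4, 4 of 5 and 2 of 2, and KNSTRN in 4 of 4, 4 of 4 and 2 of 2. TOP2A 2 was lower in 1 of 4, 4 of 5 and 2 of 2, and STMN1 1 in 2 of 4, 3 of 5 and 0 of 2. PCNA 2 was lower in 4 of 4, 3 of 5 and 1 of 2, and PCNA 1 in 1 of 4, 3 of 5 and 1 of 2. The first median of TOP2A 2 was 0.05 (pooled step -0.16) and the last of STMN1 1 was 0.22 (pooled -0.07). How much of each age difference belongs to the day was not tested beyond these fits.

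**Figure D3:**
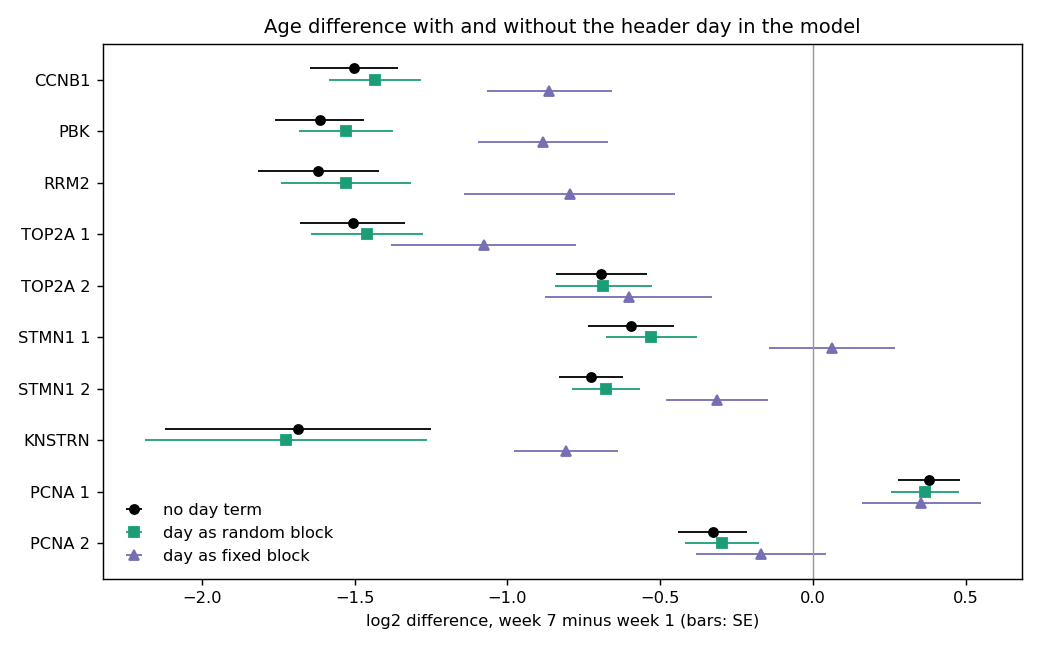
Log2 difference between week 7 and week 1, averaged over both lines, for the 10 tested member probes (x axis, bars show 1 SE), from the model with no day term (black circles), with the header day as a random block (green squares) and as a fixed block (purple triangles). The fixed block moves CCNB1 from -1.50 to -0.86 and STMN1 1 from -0.60 to 0.06.

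Weeks 3 and 5 gave a comparison of ages that the choice of genes had not used. All 10 probes had a lower mean at week 5, by 0.0084 to 0.67, with a median of -0.35 against 0.0022 over all tested probes. None passed limma's moderated test with Benjamini-Hochberg adjustment over all 14705 probes at 0.05, a threshold that 0.0612% of them met. TOP2A 1 differed by -0.67 (SE 0.16, limma adjusted p = 0.27), PBK by -0.49 (SE 0.13, adjusted p = 0.642), RRM2 by -0.55 (SE 0.18, adjusted p = 1) and CCNB1 by -0.39 (SE 0.13, adjusted p = 1). Unadjusted, 7 of the 10 probes had a p under 0.05, as did 416 of all tested probes. With the day as a fixed block TOP2A 1 stood at -0.56 (SE 0.18), PBK at -0.31 (SE 0.12), RRM2 at -0.31 (SE 0.20) and CCNB1 at -0.20 (SE 0.12), and PCNA 1 turned to 0.05 (SE 0.11).

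The middle ages were also set against the outer ones, as the mean of weeks 3 and 5 minus the mean of weeks 1 and 7. This contrast is near 0 for a gene that changes evenly. It uses the arrays of weeks 1 and 7 that chose the genes, and week 7 has fewer arrays, so the 2 are not fully independent. No member probe passed, where 0.129% of all tested probes did. An unadjusted p under 0.05 was found at 2 member probes and at 887 of all 14705 tested probes. TOP2A 1 was at -0.42 (SE 0.12, limma adjusted p = 0.289), with means of -0.08, -0.74 and -0.75 at weeks 3, 5 and 7. PBK was at 0.23 (SE 0.10, adjusted p = 0.773), its last step being the steepest of its 3.

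The comparison of the lines asked whether birds selected for more or less abdominal fat differ in these genes. No member probe passed over all ages, where limma called 0.694% of all tested probes, and the 10 adjusted p values ran from 0.224 to 0.807. The means were lower in fat birds at 7 probes and higher at 3. Of the 10, 3 had an unadjusted p under 0.05, as did 2370 of all 14705 tested probes. Those 3 were TOP2A 2, higher in fat birds at 0.26 (95% interval 0.06 to 0.47, adjusted p = 0.224), STMN1 2 at -0.18 (-0.33 to -0.03, adjusted p = 0.237) and PCNA 1 at 0.15 (0.0070 to 0.29, adjusted p = 0.294). For CCNB1 the difference was -0.06, with an interval of -0.26 to 0.14, for PBK -0.06 (-0.26 to 0.15) and for RRM2 -0.22 (-0.50 to 0.06). The intervals of CCNB1 and PBK thus leave out a line difference of 0.3 in either direction. KNSTRN was at -0.33 (-0.96 to 0.29) with the spot that read 5.54, and at -0.047 without that array.

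**Figure D4:**
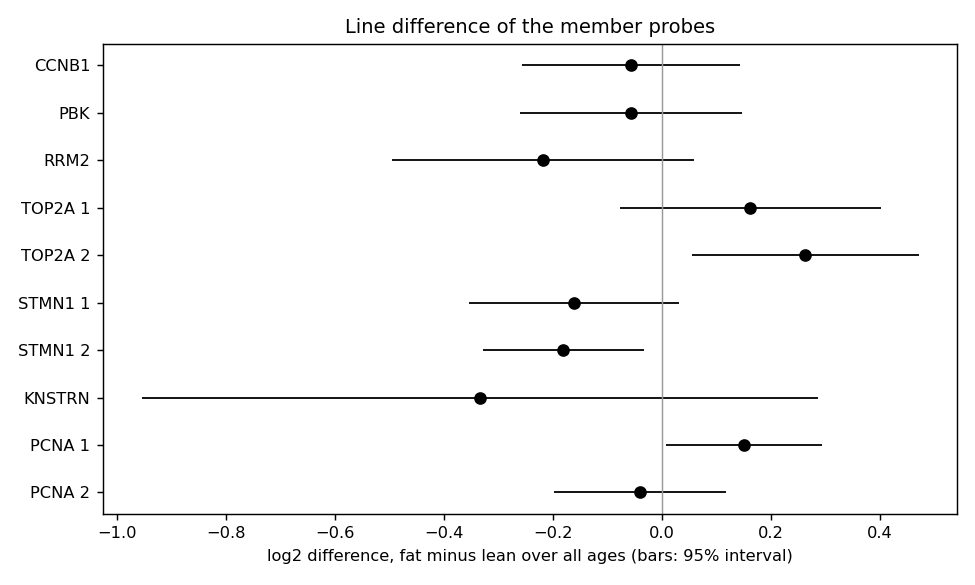
Log2 difference of fat minus lean over the 4 ages (x axis) for the 10 tested member probes, with 95% intervals from the model. The points lie on both sides of 0, from -0.33 for KNSTRN (-0.047 without the array whose spot read 5.54) to 0.26 for TOP2A 2, and no probe passed after adjustment.

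At each age the lines were also set against each other, and 0 of the 10 probes passed at any of the 4 ages, where 0%, 0%, 0% and 0.0204% of all tested probes passed at weeks 1, 3, 5 and 7. Unadjusted, 1, 2, 0 and 1 of the 10 had a p under 0.05 at weeks 1, 3, 5 and 7, against 535, 467, 573 and 3085 of all tested probes. At week 3 the lean arrays of TOP2A 2 read -0.61, -0.30, -0.29 and -0.18 and the fat arrays -0.03, 0.16, 0.18 and -0.09. The lines did not overlap there, as at 3.72% of all tested probes at that age, and the difference was 0.40 (SE 0.19, limma adjusted p = 0.999). STMN1 2 went the other way at week 3, at -0.34 (SE 0.14, adjusted p = 0.999), with overlapping lines. At week 1 KNSTRN differed by -1.27, or by -0.12 without the spot that read 5.54.

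Whether the lines aged differently was tested as an interaction of line and age. The members were chosen for the same sign of change from week 1 to week 7 in both lines. That choice touches this contrast and favours genes with little interaction, so the absence of calls among the members cannot show that the lines aged alike. No member probe passed, nor did any tested probe (0%), and the smallest unadjusted p among the members was 0.335, for KNSTRN, with an adjusted p of 1, and that of KNSTRN was 0.598 without the array whose spot read 5.54. PBK went from a mean of 0.93 ± 0.25 (SD, n = 4) at week 1 to -0.92 ± 0.34 (n = 3) at week 7 in lean birds. In fat birds it went from 0.63 ± 0.35 (n = 4) to -0.75 ± 0.29 (n = 3). Arrays of both lines shared a header day and an age in 10 cases, and the mean of the fat arrays was below that of the lean arrays in 5 of them for PBK and in 8 for STMN1 2.

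Within the groups, some arrays were high or low for several members together. The deviations of CCNB1, TOP2A, RRM2, STMN1 and PBK from their group means, at the brightest probe of each, had pairwise correlations of 0.22 to 0.68 over 29 or 30 arrays. The lowest was that of TOP2A with RRM2 and the highest that of STMN1 with PBK. KNSTRN had correlations of -0.23 to 0.15 with the other 6 genes over 28 or 29 arrays, and of 0.08 to 0.45 without the spot that read 5.54. Lean week 3 replicate 2 and fat week 7 replicate 3 were the lowest of their groups for 6 of the 7 genes, and fat week 1 replicate 4 and lean week 5 replicate 2 for 5. Lean week 3 replicate 1, fat week 3 replicate 3 and lean week 5 replicate 4 were the highest for 5, as were lean and fat week 7 replicate 1.

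Other genes of the cell cycle were read from 7 lists of known roles, with the brightest probe of each gene. Of 206 listed genes, 83 were on the array and 68 were tested. From week 1 to week 7, 19 of the 68 passed downward, or 27.9%, and 3 upward, where 8.24% of all tested genes passed downward and 9.42% upward. The median over the 68 was -0.14, against -0.03 over all tested genes. With the header day as a fixed block 0 of 66 passed, as did 0 of all 13694 probes then tested (1581 had an unadjusted p under 0.05), and with it as a random block 16 of 68 passed. The 22 calls became 9 with only the arrays of weeks 1 and 7 in the model, 14 without fat week 7 replicate 4, and 11, 11 and 10 without all arrays of replicate number 2, 3 and 4.

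The genes that passed downward lay mainly in the lists of replication, spindle and chromosome structure. Of 23 genes of replication origins and forks 16 had lower means at week 7, and 8 passed downward and 1 upward. MCM2, MCM6 and MCM5, subunits of the replicative helicase, fell by 0.70 (SE 0.15, limma adjusted p = 0.00389), 0.61 (SE 0.10, adjusted p = 0.000145) and 0.51 (SE 0.10, adjusted p = 0.00123). POLE3, a small subunit of DNA polymerase epsilon, rose by 0.36 (SE 0.11, adjusted p = 0.0303), a call lost in 14 of 53 alternative settings, which vary the processing or leave out arrays. Among the 8 that passed downward, the calls of ORC3, RFC2 and ORC6 were lost in 41, 20 and 19 of 53 settings. RRM1, the large subunit of ribonucleotide reductase and partner of RRM2, fell by 0.44 (SE 0.12, adjusted p = 0.0167), and 5 further genes of deoxynucleotide supply, among them TYMS at -0.07, did not pass.

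All 7 genes of the spindle, kinetochore and cytokinesis had lower means at week 7, and 4 passed downward. KIF2C, a kinesin that depolymerises microtubules at centromeres, fell by 1.11 (SE 0.13, limma adjusted p = 5.47e-06), and CENPH, a centromere protein, by 0.89 (SE 0.16, adjusted p = 0.000708). CKAP5, a microtubule polymerase, fell by 0.59 (SE 0.16, adjusted p = 0.017) at its brighter probe, while its other probe was at -0.05, and the call was lost in 10 of 53 settings. Of 10 genes of chromosome structure 8 had lower means at week 7 and 5 passed downward. Among those 5, the condensin subunits NCAPD2 and SMC2 fell by 0.65 and 0.53 and the chromatin protein HMGB3 by 0.45. The call of SMC2 was marginal (limma adjusted p = 0.0498) and was lost in 35 of 51 settings, with adjusted p up to 0.777, whereas those of NCAPD2 and HMGB3 were each lost in 1 of 53. SMC4, also among those that passed downward, lost its call in 35 of 53. The condensin subunit NCAPH, at -0.02, did not pass.

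None of 6 genes of mitotic entry, checkpoint and exit passed, with CDC20, an activator of the anaphase-promoting complex, at -0.15 and the checkpoint protein MAD2L1 at 0.24. Of 7 genes of cyclins, kinases and their activators 3 had lower means at week 7 and none passed downward. E2F4, a repressor E2F factor, rose by 0.33 (SE 0.11, limma adjusted p = 0.048), a marginal call that was lost in 39 of 53 settings, with adjusted p up to 0.614. CDK1, the kinase partner of cyclin B1, was at -0.15 (SE 0.09, adjusted p = 0.252). Of 9 brakes on division BTG2, an antiproliferative early gene, rose by 1.14 (SE 0.16, adjusted p = 3.03e-05), with its second probe at 0.18, and TOB1, of the same family, fell by 0.42 (SE 0.11, adjusted p = 0.0117). None of the 68 genes passed between the lines over all ages, where 0.488% of all tested genes did, a share too low for this to set the 68 apart.

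**Figure D5:**
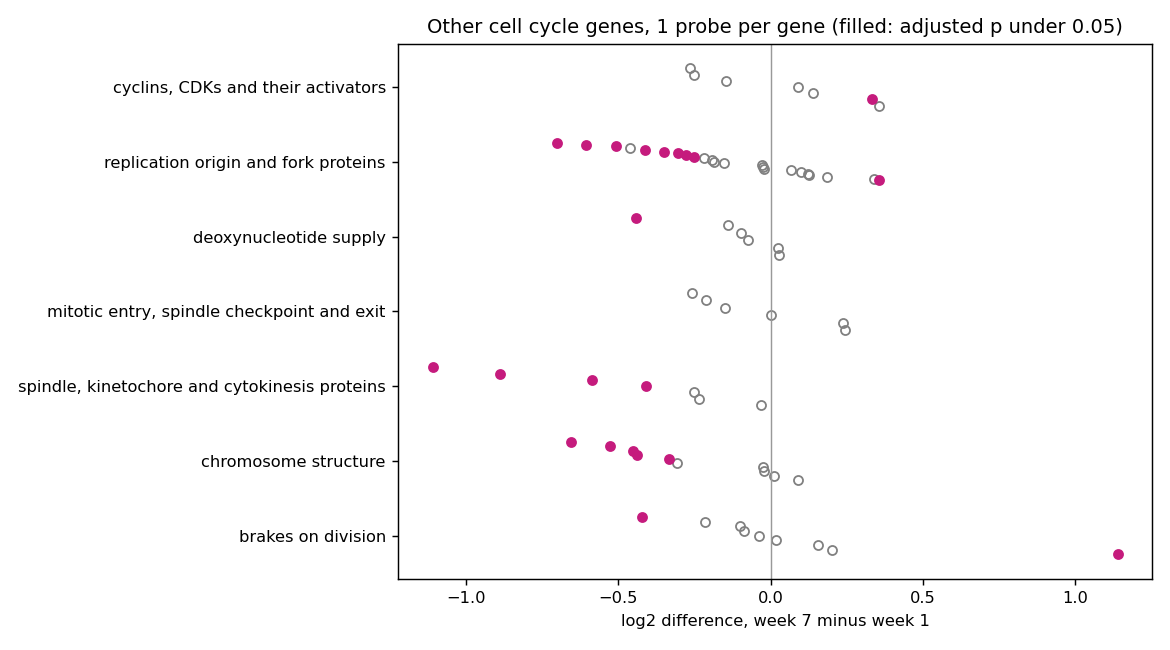
Log2 difference between week 7 and week 1 (x axis) of the 68 tested cell cycle genes other than the members, 1 point per gene, in 7 lists (y axis). Filled points passed limma's test, 19 below 0 and 3 above it, before the header day entered the model.

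The genes whose course over the 8 groups was most like the mean of the 7 members were found by the root mean square difference of the centred group means, over 5735 genes. The nearest was KIF2C, at 0.116, followed by AKAP1, a mitochondrial anchor of protein kinase A, at 0.167, MCM2 at 0.200, and SMG1, a kinase of RNA surveillance, at 0.212. MPHOSPH8, a reader of methylated histone, was at 0.229, the cartilage collagen COL2A1 at 0.233, the matrix protein OPTC at 0.234 and NCAPD2 at 0.237. The members themselves lay at 0.146 for CCNB1 to 0.330 for KNSTRN from their own mean, with PCNA 1 at 0.578. Second probes were far from the first for SMG1, at -0.11 against -0.79 from week 1 to week 7, and for MPHOSPH8, at 0.06 against -0.60. The other probes of OPTC were at -0.17 and -2.07, against -1.60 at the probe used. Without lean week 1 replicate 1, 7 of the 8 genes were the same, and OPTC took rank 92.

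Markers of other cells were read in the same arrays. Of 5 tested red blood cell genes all had lower means at week 7 and 3 passed, the globins HBBA at -1.92 and HBA1 at -1.51 and the band 3 anion exchanger SLC4A1 at -0.55. The mean of the 5 ran from 0.23 to 0.56 over the arrays of week 1, from -0.27 to 0.03 at week 3, from -0.62 to 0.0005 at week 5 and from -0.78 to -0.15 at week 7. Over 30 arrays its deviation from the group mean had a correlation of 0.36 with that of CCNB1, TOP2A 1, RRM2, STMN1 1 and PBK as a mean. Its medians were 0.42, -0.17, -0.45 and -0.49 at weeks 1, 3, 5 and 7, with little change in the last step. In that step TOP2A 1 was also level, at -0.0042, and STMN1 1 and STMN1 2 changed by -0.07 and -0.18. TOP2A 2 and KNSTRN changed by -0.38 and -0.36, and CCNB1, PBK and RRM2 by -0.67, -0.79 and -0.66. PCNA 1 and PCNA 2 rose by 0.19 and 0.10. Red cell markers and most member probes were both lower at week 7 than at week 1. The part of the red cells in the result was not tested.

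The other 6 marker lists had between 0 and 2 genes past the threshold in each direction. Over all tested genes 8.24% passed downward and 9.42% upward from week 1 to week 7. The collagens COL1A1 and COL1A2 of the 14 fibroblast and matrix genes fell by 0.36 and 0.62, and the mean of that list ran from -0.05 to 0.23 at week 1 and from -0.03 to 0.11 at week 7. Of 10 genes of lymphocytes and macrophages CD74 rose by 0.70 and MARCO fell by 0.69. Of 11 genes of neurons and glia SOX10 rose by 1.12, NEFH by 0.30 and GPM6B fell by 1.48. Of 12 genes of hormone cells CHGB rose by 0.74 and SCG2 by 0.51, and GATA2 fell by 0.51. Of 10 vessel genes ENG rose by 0.29, and of 4 stem and folliculostellate genes S100A10 fell by 0.33.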

How the data were processed

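Each of the 32 arrays came with a deposited file from TIGR Spotfinder 2.2.4, per its header. These deposited files give the intensity of each spot and of its surroundings in Cy3 and Cy5 as pixel sums without normalization. They also give, per the file headers, a quality score per spot and other measures (area, saturation, marks). A deposited table of the series gives log2 ratios normalized by the authors, with a method not stated in the sources used here, and it served as an alternative. Its columns had medians of 0.04 to 0.19, and for 31 of 32 arrays the best match was the array's own file, at correlations of 0.39 to 0.65.

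Intensities were divided by spot area, corrected with normexp (offset 50) and normalized within arrays by loess (span 0.3), with no normalization between arrays. Spots with a bad mark in either dye were dropped. A probe was tested when usable on at least 22 of 30 arrays and on 2 of every group. A limma 3.58.1 model in R 4.3.3 (statmod 1.5.0) held a mean for each of the 8 groups, with two-sided moderated tests and Benjamini-Hochberg adjustment over 14705 probes at 0.05. Genes were named from the platform annotation, in which 10601 probes have 1 symbol, 0 several and 8599 none, and 10455 matched the RefSeq gene table. Of the 14705 tested probes 8845 have a symbol, and these stand for 5742 genes. Probes of a gene are numbered by brightness.

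The members and all gene lists were chosen with earlier results of these data known. The genes named are all members, up to 3 per list and direction with the largest changes past the threshold, the 8 most like the members, and markers past the threshold. TYMS, CDK1, CDC20, MAD2L1, NCAPH, ORC3, ORC6, RFC2 and SMC4 were named after their values were seen. The tests were tried on simulated data. The p values measure the spread between arrays that the labels call biological replicates. No sequence or position is given, since no probe sequence or build was used here.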

Additional observations from a re-analysis of the deposited data

Results flagged for a closer look

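Of 59 groups of 4 arrays of a member probe, 2 held an array far from the other 3 by Dixon's test, and chance flags about 1 in 20 groups. KNSTRN on lean week 1 replicate 1 read 5.54, against 0.68 to 1.12 on the other lean arrays of that age, from a spot of 19 pixels. PBK on fat week 5 replicate 3 read -0.16, against -0.03 to -0.0011 on the other 3, which lay unusually close together, and the spot had an area of 93 pixels.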

How the results depend on the processing

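The difference of the member probes from week 1 to week 7 was recomputed under 53 settings, and 526 of 527 values kept their sign. The exception was STMN1 1 with the header day as a fixed block, at 0.063, where the median over the 10 probes was -0.70 instead of -1.11. The -1.11 includes the KNSTRN spot that read 5.54 and the -0.70 does not, so the 2 differ by more than the day. That median ran from -1.16 to -0.92 with arrays or replicate numbers left out. The other 22 cell cycle calls became 0 with the header day as a fixed block, 12 with array weights, 9 with only the groups compared and 7 in the authors' table, and 10 to 24 with arrays left out. With a loess per grid block 12 of the 22 genes kept their call. The cause of these changes was not tested. The fixed day block gives no weight to the 1 array alone on its day, and the count with only the groups compared uses fewer samples. No member probe passed by line, by interaction or between weeks 3 and 5 under any setting tried, which includes each array left out. Between the middle and outer ages 1 passed in the authors' table, TOP2A 1 at -0.57 (limma adjusted p = 0.0477). The labels do not say that replicate numbers pair the arrays, and the main model did not use them as pairs. Deviations correlated at a median of 0.14 (-0.20 to 0.41) between 99 pairs of the same number and of -0.035 (-0.41 to 0.32) between 294 pairs of different ones, and 21 of 30 arrays matched best with their own number, a hint from the data of something shared. With the replicate block 23 other cell cycle genes passed by age, 1 by line instead of 0, and the members' median was -1.18. Among all tested probes that block raised the calls by line from 102 to 299 over all ages and from 3 to 714 at week 7. The shares of all tested probes called by line thus depend on whether the replicate number is in the model. In the authors' table CCNB1 was at -2.36, and of the 8 nearest genes 4 stayed with a loess per grid block, 4 with median centring and 5 with all 32 arrays. The settings with the day as a random block and with spots under 50 pixels left out, and the KNSTRN correlations without 1 spot, were chosen after seeing the data.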
